A study of Mus musculus with 10 samples.

Results

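A set of 40 DNA repair and checkpoint genes was followed in mouse leukaemia cells after knockdown of Meis1. The genes were listed by name and sorted by role: 13 of homologous recombination, 5 of the Fanconi anaemia pathway, 3 of mismatch repair, 4 of end joining, 5 of base excision and single-strand break repair, 3 of nucleotide excision repair and 7 of the checkpoints. All 40 were measured among 18193 genes, 1 of them, claspin, under the platform's symbol Clspn. Each gene is represented by its brightest probe set, the one with the highest mean log2 intensity over all 10 arrays.

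The cells, murine line 4166, are leukaemia cells driven by the Mll-AF9 fusion, a product of chromosomal translocation that transforms myeloid progenitors. All groups carried that fusion and grew in IMDM with 15% FBS and 2 ng/ml IL-3, a cytokine that supports myeloid cells. The control group (n = 5) received a lentivirus with the empty vector, and the knockdown group (n = 5) a lentivirus with a short hairpin RNA (shRNA) against Meis1, a homeodomain transcription factor. Puromycin selected the transduced cells, and RNA was profiled at 48 h on expression arrays. The comparison asks which transcripts differ when Meis1 is lowered. It rests on 1 cell line and 1 shRNA construct as labelled, with an empty vector and no non-targeting hairpin among the groups used here. The labels pair control and shRNA samples by number, and they do not say whether samples of a group were separate cultures, so the p-values speak of the scatter among these 10 samples alone, part of which may be technical.

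Cells mend DNA lesions by pathways matched to the damage. Homologous recombination copies the sister chromatid and works in S and G2 phase, end joining ligates broken ends at any phase, the Fanconi anaemia proteins unhook crosslinks between strands, mismatch repair corrects replication errors, and excision pathways remove damaged bases or bulky adducts. The checkpoint kinases Atr and Atm sense stalled forks and breaks, and act through Chek1 and Chek2 to hold the cell cycle. In dividing haematopoietic and leukaemic cells many of these genes are transcribed mainly around S phase, under E2F factors, together with the replication machinery.

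The knockdown was present in every pair. The brightest Meis1 probe set read 346 ± 56.3 (SD, n = 5) in controls and 165 ± 40.2 (SD, n = 5) with the shRNA, a log2 change of -1.09 (limma over all probe sets, adjusted p = 0.000767); its 2 other probe sets were near background. Of 12 myeloid progenitor markers, 9 had a mean log2 level above 5, and the summed intensity of the 12 overlapped between groups (24183 to 41332 in controls, 21664 to 36088 with the shRNA), while 2 of them, Ptprc and Elane, fell. Within pairs, Ptprc, Mpo, Elane and Prtn3 were lower in 5 of 5 and Ctsg in 4 of 5. Cebpa, Spi1, Csf1r, Itgam and Fcgr3 were higher in 4 of 5, and none of these was called. Spn and Cd33 were mixed. Markers of B cells (6), T cells (6), megakaryocytes (4) and fibroblasts (6) all lay at log2 levels of 5 or less, and 1 of 6 erythroid markers, Tfr2, lay above. RNA quality moved with the groups. The ratio of 3 prime over 5 prime signal, as the mean log2 value of the control probe sets for Gapdh and Actb, was 0.28 ± 0.06 (SD, n = 5) in controls and 0.37 ± 0.02 (SD, n = 5) with the shRNA, higher in 5 of 5 pairs (exact two-sided sign-flip permutation test, p = 0.0625, the smallest that 5 pairs can give). Background, read from the unspiked Trpn controls, had a mean intensity of 3.87.

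Of the 40 genes, 7 fell and 0 rose after Meis1 knockdown (limma with the pair as a block, Benjamini-Hochberg adjusted p below 0.05 over all 18193 genes). They were Rad51ap1 and Exo1 of homologous recombination, Fanci of the Fanconi pathway, Xrcc1 and Ung of base excision and single-strand break repair, and Chek1 and claspin of the replication checkpoint. That is 17.5% of the members, where 2.98% of all genes were called lower and 1.08% higher. Among the 6721 genes with a mean log2 level above 5, 6.61% were called lower, and of the 28 members at that level 6 were. All changes were modest, with log2 changes of called members between -0.58 (claspin) and -0.36 (Xrcc1). At an unadjusted p below 0.05 there were 21 members, and 3273 of the 18193 genes. The 3 prime to 5 prime ratio differed in the same pairs, and its part in these changes was not tested beyond the fit with the ratio as a covariate given further on.

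The shift was broader than the calls. The median log2 change of the 40 members was -0.29, against 0.00 over all genes, and 35 members had a change below 0, as did 8918 of the 18193 genes. Member changes ran from -0.59 (Rad54l) to 0.18 (Fancc). In all 5 pairs 16 members were lower in the shRNA sample (10.3% of all genes were), and 0 were higher in all 5 (7.45% of genes). For 11 members every shRNA value lay below every control value (3.45% of genes), and for 0 every shRNA value lay above (1.53%). By class, homologous recombination had the lowest median change, -0.41, with 13 of 13 members below 0. Base excision and single-strand break repair had -0.30 (5 of 5 below 0), end joining -0.26 (3 of 4) and the checkpoint genes -0.25 (6 of 7). Mismatch repair had -0.14 (3 of 3), nucleotide excision repair -0.03 (2 of 3) and the Fanconi genes -0.00 (3 of 5). Signal level differed between classes, and every Fanconi member had a mean log2 level below 5 (2.83 to 4.77). The median change was -0.31 over the 28 members above a level of 5 and -0.17 over the 12 others. Over the 6721 genes above that level it was -0.04. The shares of all genes by pair, overlap and sign given here were not split by level. Members of a class are not replicates, and the differences between classes were not tested. Quantile normalization moved the median to -0.20 with 31 members below 0, and the split of called genes from 543 lower and 196 higher to 383 and 305.

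**Figure D1:**
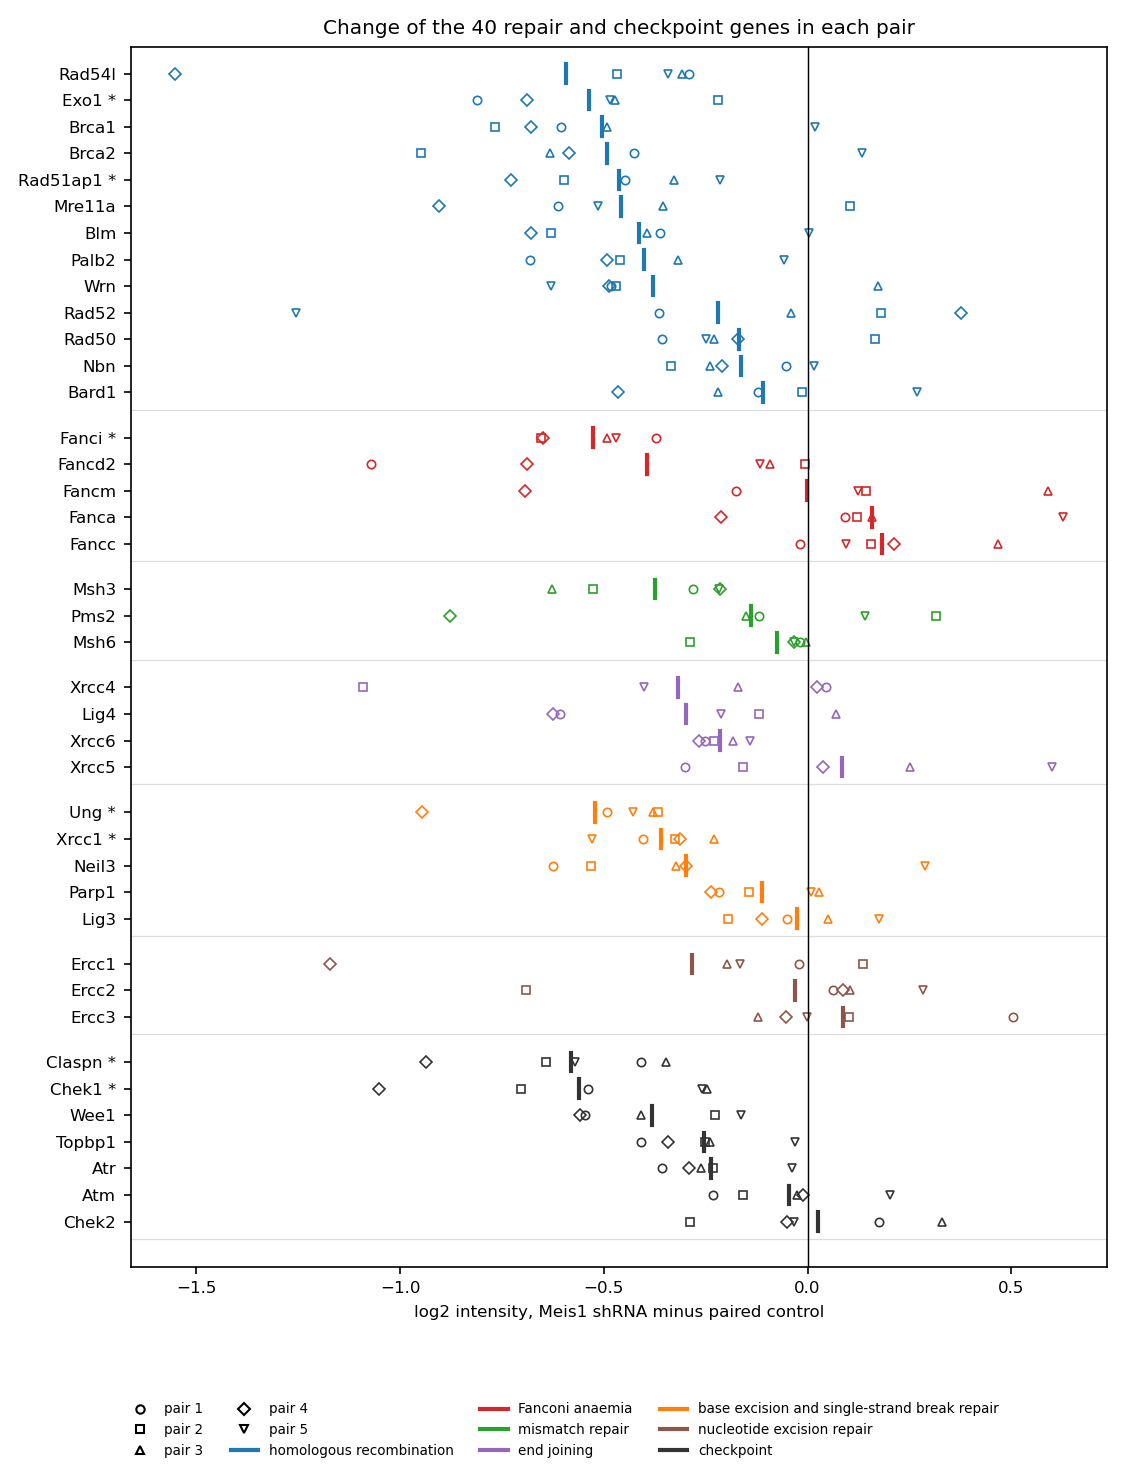
Change of each of the 40 genes in each of the 5 pairs (log2 intensity, shRNA minus paired control), grouped by class; symbols mark the pair, vertical bars the mean change, and asterisks the 7 genes with adjusted p below 0.05. Every homologous recombination gene has a mean below 0, while means on both sides of 0 occur among Fanconi, end joining, nucleotide excision and checkpoint genes.

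**Figure D2:**
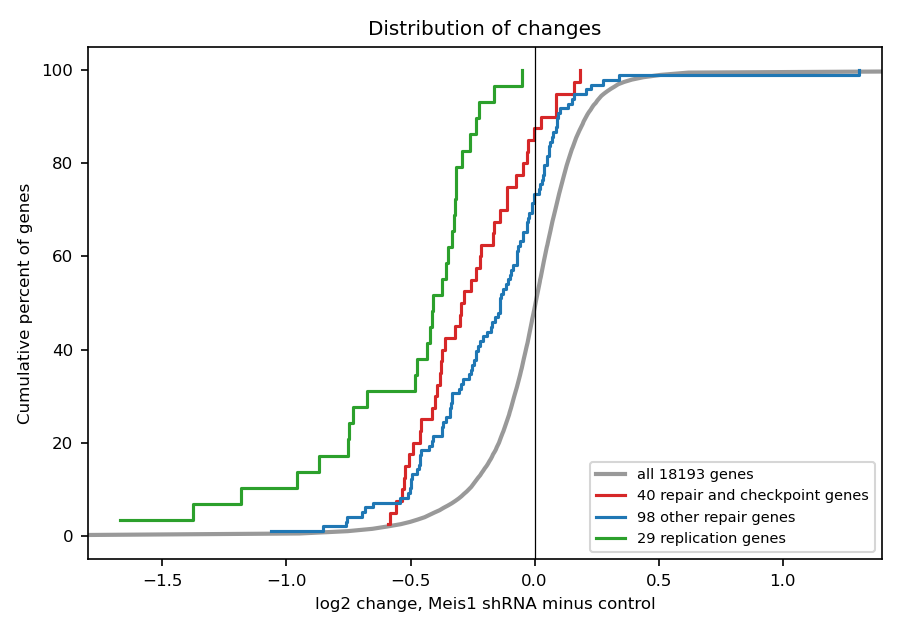
Cumulative share of genes by log2 change (shRNA minus control) for the 40 members, the wider repair list, the replication genes and all 18193 genes. The medians are -0.29, -0.14, -0.41 and 0.00 in that order.

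Homologous recombination genes gave 2 calls among 13. Exo1, an exonuclease that resects DNA ends and also serves mismatch repair, read 265.7, 232.6, 215.7, 206.8 and 201.9 in controls 1 to 5 and 151.4, 199.6, 155.4, 128.4 and 144.3 in the paired shRNA samples. The groups did not overlap, and shRNA sample 2 came closest to the controls. Exo1 fell 1.45-fold, a log2 change of -0.54 with a standard error (SE) of 0.10 (adjusted p = 0.0249). Rad51ap1, which promotes strand pairing, read 422.1, 441.3, 329.5, 417.8 and 360.3 in controls and 309.4, 291.7, 262.5, 252.2 and 310.2 with the shRNA. Again all shRNA samples lay below all controls. Rad51ap1 fell 1.38-fold (log2 change -0.46, SE 0.10, adjusted p = 0.0366). Each call was lost when some pairs were left out. Exo1 lost it without pair 1, 3 or 4 (adjusted p = 0.0923, 0.0759 and 0.111), and Rad51ap1 without pair 1, 2, 3 or 4 (0.0837 to 0.142). With each pair left out in turn, the change ran from -0.61 to -0.47 for Exo1 and from -0.53 to -0.40 for Rad51ap1.

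Rad54l, a motor protein that remodels recombination intermediates, had the most negative mean change of the 40, but did not pass. Its controls read 129.2, 127.6, 127.8, 182.8 and 129.8, and its shRNA samples 105.6, 92.34, 103.2, 62.34 and 102.4. The groups did not overlap, while pair 4, with the highest control and the lowest shRNA sample, had a difference of -1.55 and the other pairs -0.29 to -0.47. The mean was -0.59 (SE 0.18, adjusted p = 0.126). At the other end Bard1, the partner of Brca1 in a ubiquitin ligase, read 4.09, 4.91, 4.21, 4.66 and 3.60 in controls and 3.76, 4.87, 3.61, 3.38 and 4.34 with the shRNA. Those intensities lie close to the Trpn background, so a change in Bard1 was hardly measurable (log2 change -0.11, adjusted p = 0.681).

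The breast cancer genes and their linker were near the threshold. Brca1 (log2 change -0.51, adjusted p = 0.0571), which directs end resection and recombination, was lower in 4 of 5 pairs, pair 5 differing by 0.02. Brca2, a mediator of recombination, had -0.49 (adjusted p = 0.107) and was also lower in 4 of 5. Palb2, which joins those proteins, had -0.40 (adjusted p = 0.0706) with no overlap between groups. Among the end-processing complex, Mre11a, its nuclease, had -0.46 (adjusted p = 0.115), while Rad50 and Nbn had -0.17 and -0.16 (0.416 and 0.369). The RecQ helicases Blm and Wrn had -0.41 and -0.38 (0.0839 and 0.14), and Rad52, an annealing factor, -0.22 (0.663) with pair 5 alone at -1.25.

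Checkpoint genes gave 2 calls among 7, both on the Atr branch. Chek1, the kinase that Atr activates at stalled forks, read 167.5, 163.6, 147.9, 173.0 and 131.3 in controls and 115.2, 100.5, 124.6, 83.51 and 109.7 with the shRNA. The highest shRNA sample, 3, lay below the lowest control, 5. Chek1 fell 1.47-fold (log2 change -0.56, SE 0.13, adjusted p = 0.0485). Claspin, the adaptor through which Atr reaches Chek1, read 194.9, 222.3, 148.8, 190.4 and 165.7 in controls and 146.8, 142.5, 116.9, 99.47 and 111.5 with the shRNA, the groups apart by a narrow margin. Claspin fell too, with a log2 change of -0.58 (SE 0.10) and an adjusted p of 0.0189. The Chek1 call was lost without pair 1, 2, 3 or 4 (adjusted p = 0.073 to 0.146), and that of claspin without pair 1, 2 or 4 (0.0504, 0.0716 and 0.0697).

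Atr itself had a log2 change of -0.24 (adjusted p = 0.17), lower in 5 of 5 pairs. Topbp1, an activator of Atr, read 1768 ± 120 (SD, n = 5) in controls and 1481 ± 74.4 (SD, n = 5) with the shRNA; the groups did not overlap, but its change of -0.25 did not pass (adjusted p = 0.157). Wee1, the kinase that restrains Cdk1 and Cdk2, had -0.38 (adjusted p = 0.0595), also without overlap. The members Atm and Chek2 gave values near 0. Atm had -0.05 (adjusted p = 0.856). Chek2, its effector kinase, read 181.6, 198.3, 192.4, 222.6 and 198.5 in controls and 204.9, 162.3, 241.7, 214.9 and 194.1 with the shRNA, the 2 groups fully intermixed (log2 change 0.03, SE 0.10, adjusted p = 0.937). Whether the Atr and Atm branches differ was not tested. The wider checkpoint genes described below were not sorted by branch, and their changes ran from -1.06 (Rnf168) to 0.16 (Rad17).

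Base excision and single-strand break repair gave 2 calls among 5. Ung, the glycosylase that removes uracil from DNA, read 378.0, 367.5, 310.8, 316.8 and 291.7 in controls and 268.8, 285.1, 239.0, 164.4 and 216.9 with the shRNA. All shRNA samples lay below all controls, shRNA sample 4 the lowest. Ung fell 1.44-fold (log2 change -0.52, SE 0.10, adjusted p = 0.0316). Xrcc1, the scaffold of single-strand break repair, read 60.27, 59.33, 64.33, 61.96 and 61.60 in controls, and 45.53, 47.34, 54.83, 49.90 and 42.66 with the shRNA, again with no overlap. It fell 1.28-fold (log2 change -0.36, SE 0.08, adjusted p = 0.0475). Ung kept its call only without pair 5, with adjusted p between 0.0719 and 0.0976 without each of the others, and Xrcc1 lost it without any 1 pair (0.0868 to 0.154).

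Lig3, the ligase that works with Xrcc1, read 148.1, 138.3, 141.4, 144.5 and 128.4 in controls and 143.1, 120.8, 146.4, 133.8 and 144.9 with the shRNA. Those groups overlapped throughout (log2 change -0.03, adjusted p = 0.921). Parp1, the sensor of nicks, read 1043 ± 81.5 (SD, n = 5) in controls and 963 ± 34.5 (SD, n = 5) with the shRNA, a change of -0.11 (adjusted p = 0.553). Neil3, a glycosylase for oxidised bases, had -0.30 (adjusted p = 0.283), with pair 5 alone above 0.

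In the Fanconi pathway 1 of 5 genes was called. Fanci, which with Fancd2 forms the clamp that the core complex ubiquitinates, read 32.46, 30.45, 24.69, 27.42 and 22.58 in controls and 25.07, 19.36, 17.56, 17.47 and 16.29 with the shRNA. The groups overlapped, since shRNA sample 1 lay above controls 3 and 5, but each shRNA sample was below its own control. Fanci fell 1.44-fold (log2 change -0.53, SE 0.08, adjusted p = 0.0119), and without pair 2 or 4 the call was lost (adjusted p = 0.0509 and 0.0624). Its partner Fancd2 had -0.40 with an SE of 0.16 (adjusted p = 0.237), lower in 5 of 5 pairs but by -0.01 in pair 2 and -1.07 in pair 1. Fancm, a translocase that brings the core complex to DNA, read 12.25, 10.59, 7.25, 14.06 and 9.93 in controls and 10.84, 11.69, 10.92, 8.70 and 10.83 with the shRNA, overlapping fully (log2 change -0.00, adjusted p = 0.997). The core complex genes Fanca and Fancc had positive changes of 0.16 and 0.18 that did not pass (adjusted p = 0.56 and 0.353), and both became negative, at -0.03 and -0.07, in the mean over all their probe sets. Fancc was dim, and its next probe set, at nearly the same mean log2 level (2.83 for both), had -0.48, lower in 5 of 5 pairs (adjusted p = 0.0522 over all probe sets).

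None of the 3 mismatch repair genes passed (limma; 1 had an unadjusted p below 0.05, as had 3273 of the 18193 genes). Msh3, which recognises insertion loops, read 12.71, 14.09, 14.43, 11.14 and 10.20 in controls and 10.46, 9.77, 9.35, 9.59 and 8.78 with the shRNA. Only shRNA sample 1 reached above the lowest control, and each pair was lower (log2 change -0.37, SE 0.09, adjusted p = 0.0679). Msh6, which recognises single mismatches, read 937.8, 1086, 935.0, 954.9 and 901.1 in controls and 925.4, 889.0, 933.2, 933.1 and 880.6 with the shRNA. Its groups overlapped, and control 2 stood highest (log2 change -0.08, SE 0.08, adjusted p = 0.708). Pms2, the endonuclease subunit that follows recognition, had -0.14 (adjusted p = 0.725), with pair 4 at -0.88 and pair 2 at 0.32.

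End joining gave 0 calls among 4 genes (limma; 2 had an unadjusted p below 0.05, as had 3273 of the 18193 genes). Xrcc6, the Ku70 subunit that caps broken ends, read 286.4, 302.4, 296.2, 275.4 and 262.5 in controls and 240.5, 257.9, 261.0, 229.0 and 238.0 with the shRNA. The groups did not overlap, by a margin of 261.0 to 262.5, and the change was -0.21 (SE 0.07, adjusted p = 0.172). Xrcc5, its Ku80 partner, read 9.28, 7.91, 7.88, 7.58 and 5.87 in controls and 7.54, 7.08, 9.38, 7.78 and 8.90 with the shRNA, overlapping throughout (log2 change 0.09, adjusted p = 0.804). Xrcc5 was dim, at a mean log2 level of 2.97, which limits what its change can show. Xrcc4, the cofactor of the end-joining ligase, read 90.70, 92.34, 106.3, 97.44 and 108.6 in controls and 93.53, 43.38, 94.45, 99.05 and 82.18 with the shRNA. Its mean of -0.32 (SE 0.16, adjusted p = 0.354) rested largely on shRNA sample 2, whose pair differed by -1.09. Lig4, that ligase, was dim and had -0.30 (adjusted p = 0.23).

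Nucleotide excision repair gave 0 calls among 3 genes, and 0 at an unadjusted p below 0.05 (limma). Ercc1, the partner of the 5 prime incision nuclease, read 112.3, 107.8, 138.3, 138.3 and 114.2 in controls and 110.7, 118.5, 120.5, 61.42 and 101.8 with the shRNA. Only shRNA sample 4 was far below the controls, with a pair difference of -1.17 (mean -0.28, SE 0.17, adjusted p = 0.459). Ercc2, a helicase of the repair and transcription factor TFIIH, read 10.28, 16.39, 10.30, 11.15 and 10.88 in controls and 10.74, 10.15, 11.08, 11.85 and 13.23 with the shRNA. Control 2 stood above all others, and the rest were intermixed (log2 change -0.03, adjusted p = 0.946). Ercc3, the other TFIIH helicase, had 0.09 (adjusted p = 0.747).

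**Figure D3:**
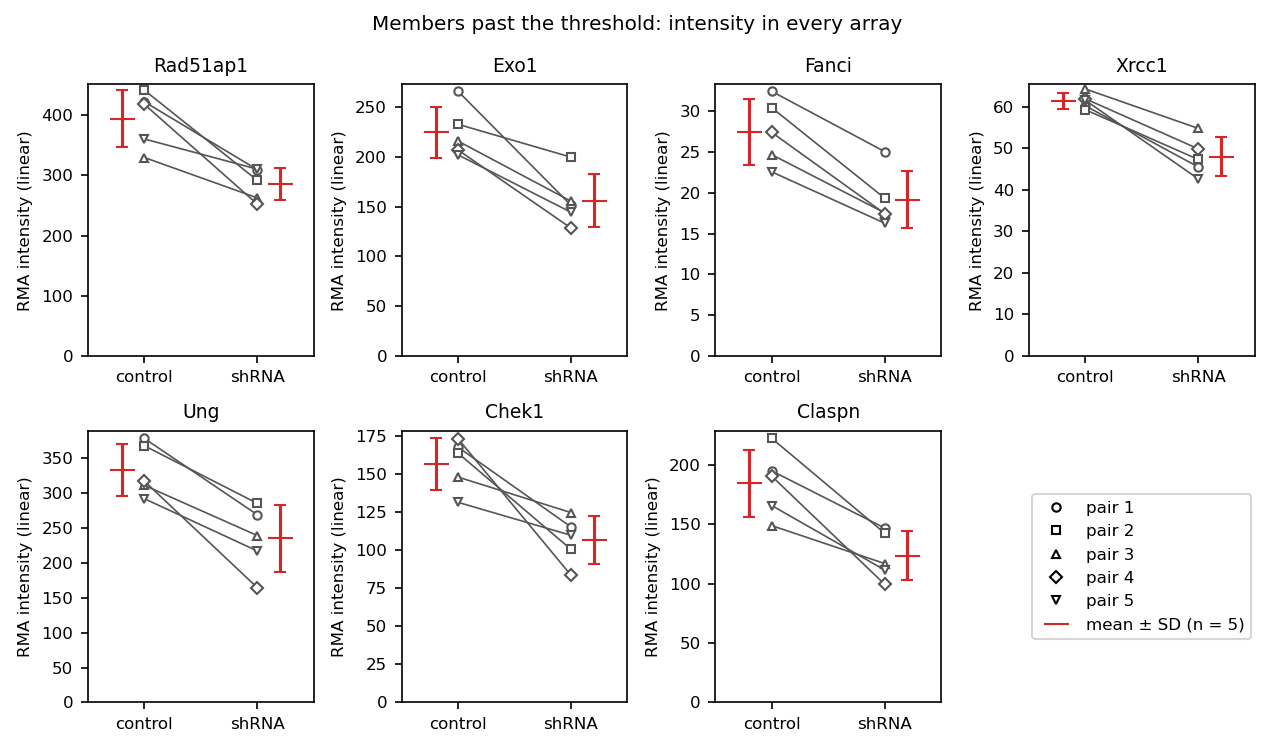
Intensity (linear scale) of the 7 called genes on each array, control and shRNA, with lines joining the samples of a pair and red bars for mean ± SD (n = 5). The shRNA sample is lower in 5 of 5 pairs for each gene, and the groups overlap for Fanci only.

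Other probe sets of the members gave a second reading of the same RNA, independent of the choice of the brightest but not of the arrays. There were 54 of them for 28 genes, 44 with a change below 0, and 7 passed when all probe sets were tested together (2.39% of the non-brightest probe sets of all genes were called lower). Among the 12 with a mean log2 level above 5, 12 were below 0 (65.3% in the background), the median change was -0.67 and 5 passed (6.40% in the background, whose median was -0.08). The 11 other probe sets of called members were all below 0, with a median of -0.53, and 2 passed. Their genes had been picked as lower on the same arrays, so this direction is no separate support for the calls.

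Rad54l stood out here. Its probe set 1423123_at read 60.37, 60.08, 50.90, 58.14 and 60.68 in controls and 29.11, 32.95, 26.48, 21.30 and 20.29 with the shRNA, so that the groups were far apart. The log2 change was -1.18 (SE 0.12, adjusted p = 0.00223 over all probe sets), and a further set, 1423124_x_at, gave -0.94 (adjusted p = 0.00225). Both passed without any 1 pair (adjusted p up to 0.0171 and 0.0181), unlike the brightest set described above, and neither passed with unmoderated variances (adjusted p = 0.119 and 0.093). With the ratio covariate their changes were -1.15 and -0.91, but with wider errors neither passed (0.416 and 0.421).

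Brca1 1424630_a_at read 70.66, 82.15, 65.24, 72.11 and 44.82 in controls and 41.89, 22.71, 28.41, 33.73 and 35.21 with the shRNA, with no overlap (log2 change -1.05, adjusted p = 0.0235), and 1451417_at gave -1.03 (adjusted p = 0.0213). Chek1 1450677_at read 101.4, 102.9, 74.31, 101.7 and 72.08 in controls and 59.60, 41.89, 61.16, 43.94 and 33.61 with the shRNA, again apart (log2 change -0.93, adjusted p = 0.0148), and 1439208_at gave -0.97 (adjusted p = 0.0219). Wee1 1416774_at read 133.8, 148.0, 136.0, 113.7 and 129.1 in controls and 101.0, 89.17, 79.79, 86.04 and 75.69 with the shRNA, without overlap (log2 change -0.62, adjusted p = 0.0153). Each of these 5 sets lost its call without at least 2 of the pairs in turn (adjusted p up to 0.109). Of the brightest sets, Clspn, Exo1, Fanci and Ung passed over all probe sets, and Chek1, Rad51ap1 and Xrcc1 did not (0.0631, 0.0519 and 0.0732). The difference between probe sets of a gene was not tested.

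**Figure D4:**
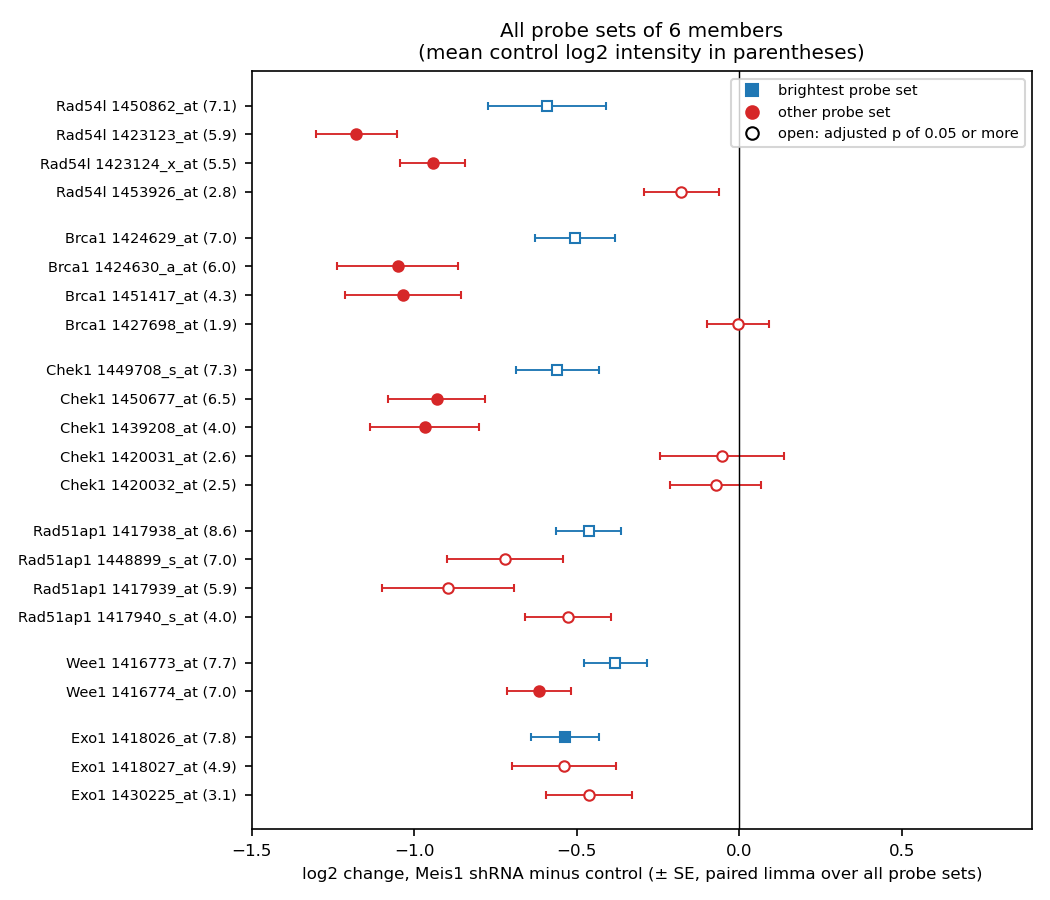
Log2 change with SE (shRNA minus control) of every probe set of 6 members, squares for the brightest and circles for the others; filled symbols have adjusted p below 0.05 in the fit over all probe sets, in which the brightest sets of Chek1 and Rad51ap1 are open. The Rad54l sets at -1.18 and -0.94 lie lower than its brightest set at -0.59.

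Promoter sequences of members were read from RefSeq (mouse, GRCm38.p6), as 250 bases before to 50 after the annotated start, to show which of the letters below they carry. Of the 40 genes, 33 had an entry, 35 entries in all; Ercc3, Exo1, Fancd2, Nbn, Rad50, Wee1 and Wrn had none. The letters searched, on both strands, were 4 forms of the E2F element (TTTCCCGC, TTTGGCGC, TTTCGCGC and TTTGCCGC), a shorter E2F core TTCCCGC that lies inside the first form and was added after sequences had been seen, the CCAAT box, the cell cycle element CHR (TTTGAA or TTCGAA) and the Meis-type core TGACAG. Full promoters are shown for 4 called genes with an E2F form or core, with capitals marking every match to these letters. The promoters of Ung and Xrcc1, also called, held no E2F letters.

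Chek1: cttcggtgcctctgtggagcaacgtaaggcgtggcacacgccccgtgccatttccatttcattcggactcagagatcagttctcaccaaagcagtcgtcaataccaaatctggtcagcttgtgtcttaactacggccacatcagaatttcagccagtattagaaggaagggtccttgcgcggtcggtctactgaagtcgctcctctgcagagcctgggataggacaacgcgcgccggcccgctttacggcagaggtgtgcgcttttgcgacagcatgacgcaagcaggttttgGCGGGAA
Clspn: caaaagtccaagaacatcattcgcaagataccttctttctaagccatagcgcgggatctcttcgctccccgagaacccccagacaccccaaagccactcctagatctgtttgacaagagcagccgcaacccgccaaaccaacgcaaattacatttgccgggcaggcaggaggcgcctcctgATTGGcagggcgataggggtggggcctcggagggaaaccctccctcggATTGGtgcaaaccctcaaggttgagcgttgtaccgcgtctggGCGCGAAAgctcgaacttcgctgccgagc
Fanci: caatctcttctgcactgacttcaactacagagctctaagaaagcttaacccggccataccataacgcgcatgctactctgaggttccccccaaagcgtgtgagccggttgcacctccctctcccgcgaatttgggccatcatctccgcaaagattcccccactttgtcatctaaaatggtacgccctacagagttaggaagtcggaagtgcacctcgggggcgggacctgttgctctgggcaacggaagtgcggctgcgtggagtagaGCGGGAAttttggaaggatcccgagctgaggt
Rad51ap1: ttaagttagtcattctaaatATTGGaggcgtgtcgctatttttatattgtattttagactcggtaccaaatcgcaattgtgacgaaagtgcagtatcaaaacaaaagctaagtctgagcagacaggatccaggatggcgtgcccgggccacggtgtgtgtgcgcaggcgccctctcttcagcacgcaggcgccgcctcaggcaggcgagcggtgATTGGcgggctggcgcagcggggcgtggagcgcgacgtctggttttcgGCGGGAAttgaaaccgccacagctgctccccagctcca

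These lie at chr9:36726609-36726908 for Chek1 and chr6:126939538-126939837 for Rad51ap1, both on the minus strand, and at chr4:126556730-126557029 for Clspn and chr7:79392088-79392387 for Fanci, both on the plus strand. Each sequence is printed 5' to 3' along its gene. Claspin has an 8-letter E2F form at bases 22 to 29 after the start and 2 CCAAT boxes upstream. Chek1, Fanci and Rad51ap1 have the shorter core, at bases 44 to 50, 19 to 25 and 13 to 19, and Rad51ap1 has 2 CCAAT boxes as well.

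An 8-letter E2F form occurred in 8 of the 35 member entries (22.9%), against 2.26% of all 32851 promoters of this length. It was in 2.85% of the promoters of protein-coding genes. Among the replication genes described below it was more frequent than among members, in 12 of 25 promoters (48%). Only 1 of the 8 members with the form, claspin, was called. The others were Bard1, Brca2, Chek2, Msh3, Msh6, Topbp1 and Xrcc6, with log2 changes from -0.49 (Brca2) to 0.03 (Chek2). Their windows are shown to compare the sites, with capitals for the E2F form only.

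Bard1: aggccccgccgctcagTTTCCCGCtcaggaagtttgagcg
Brca2: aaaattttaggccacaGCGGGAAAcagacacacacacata
Chek2: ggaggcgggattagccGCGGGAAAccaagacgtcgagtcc
Msh3: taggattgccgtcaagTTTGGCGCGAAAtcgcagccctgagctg
Msh6: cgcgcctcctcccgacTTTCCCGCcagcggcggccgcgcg
Topbp1: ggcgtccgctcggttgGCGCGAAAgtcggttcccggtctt
Xrcc6: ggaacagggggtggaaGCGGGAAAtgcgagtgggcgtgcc

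The windows lie at chr5:150522437-150522476, chr5:110839815-110839854, chr17:87975049-87975088, chr9:103305182-103305221 and chr15:82016307-82016346 on the plus strand and chr1:71103158-71103197 (Bard1) and chr13:92355178-92355221 (Msh3) on the minus strand, in the same build. In Msh3 2 forms overlap. The shorter core was in 12 of 35 entries (34.3%; 4.60% of all promoters) and CCAAT in 19 (54.3%; 37.4%). CHR letters were in 3 (8.57%; 19.2%) and TGACAG in 4 (11.4%; 19.2%), those of Palb2, Parp1, Xrcc1 and Xrcc6, of which Xrcc1 alone was called. Member promoters had a median GC content of 58.7%, against 52.7% over all promoters and 56.3% over those of protein-coding genes. Promoters of protein-coding genes held the shorter core in 5.95% and CCAAT in 38.2%. Those of the replication genes held the core in 52%, CCAAT in 68%, CHR letters in 20% and TGACAG in 4%. A match is a string of letters, not a measured site.

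Other genes of the same pathways were taken from a list of 111, of which 98 were measured. Of these 10 fell (10.2%) and 1 rose, where 2.98% of all genes were called lower and 1.08% higher. Among all genes with a mean log2 level above 5, 6.61% were called lower. The list had a median log2 change of -0.14 and 72 genes below 0, as were 8918 of the 18193 genes. By class the called genes were 4 of 20 for homologous recombination, 1 of 12 for the Fanconi pathway, 0 of 4 for mismatch repair, 0 of 8 for end joining, 2 of 17 for base excision, 2 of 17 for nucleotide excision repair and 2 of 20 for the checkpoint group. Class medians did not repeat the order of the members. They were -0.28 for mismatch repair, -0.27 for the Fanconi pathway, -0.25 for homologous recombination and -0.22 for the checkpoint group. Base excision and end joining had -0.07 each and nucleotide excision repair -0.02. Homologous recombination held the most called genes. Gen1, which cleaves Holliday junctions (log2 change -0.65, adjusted p = 0.0141), Rad54b, a relative of Rad54l (-0.68, 0.0351, dim), and Top3a, which dissolves junctions with Blm (-0.50, 0.0391), were among them. Their mean log2 levels were 4.58 for Gen1, 3.36 for Rad54b and 4.51 for Top3a. Ube2t, the conjugating enzyme for Fanci and Fancd2, fell from 210 ± 18.1 to 144 ± 6.61 (SD, n = 5 each; log2 change -0.54, adjusted p = 0.0147). Smug1, a uracil glycosylase like Ung, fell as well (-0.50, adjusted p = 0.0338), at a mean log2 level of 4.02. The calls of Gen1, Rad54b, Top3a, Ube2t and Smug1 were each lost without at least 3 of the pairs in turn (adjusted p up to 0.145). Rad54b and Smug1 also lost theirs with the pair as a random effect (0.142 and 0.0559) and without the pairing (0.24 and 0.108). Prkdc, the kinase of end joining, had -0.01 (adjusted p = 0.971).

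Rnf168, Mbd4 and Ercc5 had the largest changes of that list. Rnf168, a ubiquitin ligase that marks chromatin at breaks, read 194.5, 181.1, 181.6, 207.2 and 171.9 in controls and 113.7, 92.28, 106.5, 70.50 and 72.78 with the shRNA, with every shRNA sample well below every control. It fell 2.09-fold (log2 change -1.06, SE 0.13, adjusted p = 0.00372). Mbd4, a glycosylase for mismatched thymine at methylated CpG sites, read 46.04, 46.90, 42.97, 61.69 and 53.33 in controls and 27.31, 26.35, 30.74, 27.80 and 25.96 with the shRNA, also apart, and fell 1.80-fold (log2 change -0.85, SE 0.11, adjusted p = 0.00487). Ercc5, the 3 prime incision nuclease, went the other way: it read 47.58, 35.55, 31.54, 32.39 and 31.30 in controls and 78.90, 82.78, 102.3, 111.2 and 67.80 with the shRNA. Every shRNA sample exceeded every control, and Ercc5 rose 2.48-fold (log2 change 1.31, SE 0.15, adjusted p = 0.0035). These 3 calls held without any 1 pair (adjusted p up to 0.0281), though in the mean over their probe sets Ercc5 changed by 0.67 and Rnf168 by -0.69.

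Replication genes, a list of 30 with 29 measured, are shown for comparison because many repair genes are transcribed with them. Of these 11 fell (37.9%) and 0 rose, where 2.98% of all genes were called lower and 1.08% higher. Among all genes with a mean log2 level above 5, 6.61% were called lower. The median change of the replication genes was -0.41, and 29 were below 0, as were 8918 of the 18193 genes. The called genes included the helicase loader Cdc6 (-0.75), the helicase subunits Gins2 (-1.38) and Mcm5 (-0.48), the thymidine kinase Tk1 (-1.18) and Cdk2 (-1.67). Whether repair and replication genes differ in size of change was not tested.

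The 5 pairs were not alike in marker level. Elane read 1421 and 1285 in controls 1 and 2 and 3347 to 3671 in controls 3 to 5. In the shRNA samples it read 1024 and 921.9, then 2465 to 3000. Ptprc did not split so, at 704.5 and 665.8 in controls 1 and 2 and 669.4 to 820.5 in the others. What sets these arrays apart was not tested. The pairs also differed in depth of change. The median member change was -0.36, -0.24, -0.23, -0.40 and -0.05 in pairs 1 to 5, with 35, 31, 30, 35 and 25 of the 40 genes lower. Over all genes the median was -0.02, -0.02, -0.02, -0.00 and 0.02. Replication genes gave medians of -0.39, -0.38, -0.33, -0.65 and -0.22 in the same order. Pair 4 held the most negative difference for 16 members (40%; 21.0% of all genes) and pair 5 the least negative for 17 (42.5%; 28.3%). The Meis1 change itself was -1.04, -0.90, -1.23, -1.22 and -1.05 in pairs 1 to 5. The 3 prime to 5 prime ratio differed by 0.106, 0.0568, 0.0852, 0.188 and 0.0124 from control to shRNA, most in pair 4 and least in pair 5. How the depth of the member changes relates across pairs to the Meis1 change or to this ratio was not tested.

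With that ratio as a covariate beside the pair, 27 of 40 members were below 0, the median was -0.12, and 0 were called (limma; 7 members and 1173 genes had an unadjusted p below 0.05, and 2 genes of all 18193 were called). The median SE of a member was then 0.18 in place of 0.10. The 7 called members all stayed below 0, at -0.36 for Exo1, -0.25 for Rad51ap1, -0.48 for Fanci, -0.44 for Xrcc1, -0.24 for Ung, -0.20 for Chek1 and -0.41 for claspin. Meis1 also lost its call in that fit (-0.98, adjusted p = 0.186).

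**Figure D5:**
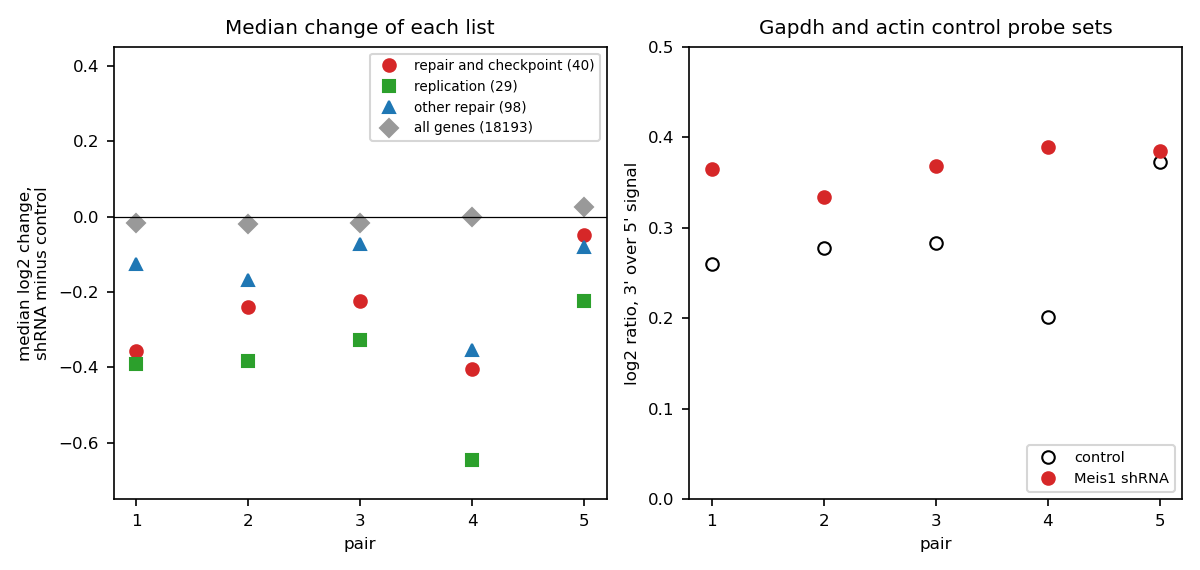
Median log2 change of the members, the wider repair list and the replication genes in each pair (left), and the log2 ratio of 3 prime to 5 prime control signal on each control and shRNA array (right). Pair 4 has the deepest member median (-0.40) and the largest ratio difference (0.188), pair 5 the shallowest (-0.05) and the smallest (0.0124). A link between them was not tested.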

How the data were processed

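The authors deposited probe set intensities for 10 arrays on a linear scale, made with RMA per the submitters' processing notes; its version was not given in the sources used here. The method corrects background, normalizes between arrays and summarises probes, and it compresses large folds. The linear scale was read from their range, 1.30 to 32400, and the number of arrays limits the precision.

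The 64 controls were left out of 45101 probe sets. Of the rest, 34945 had 1 symbol, 932 several and 9160 none. Log2 values (no pseudocount) of the brightest probe set of 18193 genes entered limma 3.58.1 (R 4.3.3; lmFit, eBayes) with replicate number as a fixed block, two-sided, Benjamini-Hochberg threshold 0.05. The labels' protocols pair the samples by number. Deviations of paired samples from group means correlated at 0.600, 0.462, 0.339, 0.310 and 0.557 over 11215 probe sets. Samples of different numbers were not compared in this way, so these values do not test the pairing. The fit was tested on simulated data.

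The members and lists were chosen with earlier results of these data known. Values by sample are given for called members and for the largest and smallest change in each class; Xrcc6 and the probe sets described by array were chosen after their values were seen. From the wider list, the 8 largest called changes and Prkdc were named. Alternatives were other blocks, scalings, variance models, probe set choices, a level filter, a ratio covariate, and leaving out each pair.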

Additional observations from a re-analysis of the deposited data

Results flagged for a closer look

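Within-group outliers were searched for by Dixon's test (gap to the nearest sample over the range, at the 95% critical value for 5 samples) in 122 groups of 5, where about 1 group in 20 passes by chance; 7 did. The control 4 value of Rad54l, 182.8, stood above the other controls at 127.6 to 129.8. In the other Rad54l probe set 1423123_at, control 3 at 50.9 stood below the rest at 58.14 to 60.68. Fancm in shRNA sample 4 read 8.7 with the others at 10.83 to 11.69, and Neil3 in shRNA sample 5 read 73.49 with the others at 26.56 to 38.82. Ercc2 in control 2 read 16.39, the rest 10.28 to 11.15. Of the wider list, Ube2t in control 5 read 178.6 (rest 214.1 to 222.1) and Ercc5 in control 1 read 47.58 (rest 31.3 to 35.55).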

How the results depend on the processing

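In the fit with the pairing (replicate block), 7 members were lower and 0 higher. Without the block 8 were lower, 5 of them shared, and Fanci (adjusted p = 0.0613) and Ung (0.083) were not; the count of all genes higher was then 95 in place of 196. Quantile normalization gave 4 members lower and 305 genes higher. Trend and robust eBayes gave 12 members, 1044 genes lower, 453 higher and 23 of the wider list lower. Without moderation the counts were 0 members (15 members and 2991 genes at an unadjusted p below 0.05), 30 genes lower, 10 higher, and 0 lower and 0 higher of the wider list. Genes above a log2 level of 5 gave 12, 915, 390 and 16 in the order of trend and robust eBayes. The mean of probe sets gave 16 of the wider list, and testing all probe sets gave 4 members and 881 probe sets lower. The ratio covariate gave 0 members, 2 genes lower and 0 higher, 0 lower and 0 higher of the wider list, a member median of -0.12 and Meis1 at -0.98 (adjusted p = 0.186). Leaving out 1 pair gave 0 (pair 4; 16 members and 2425 genes at an unadjusted p below 0.05) to 12 (pair 5) members lower, 199 to 656 genes lower, 44 to 273 higher, and 2 to 14 of the wider list lower. Of the added alternatives, leaving out claspin gave 6 members and leaving out _s_at and _x_at probe sets 7. The cause of these differences was not tested. The member median stayed below 0 in every alternative, and no member was called higher in any.

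Changes of sign occurred only in genes not called either way. Quantile normalization gave 0.044 for Fancm, 0.071 for Lig3, 0.00777 for Ercc2, 0.067 for Atm and 0.098 for Prkdc, and median centring -0.013 for Chek2. The mean of probe sets gave 0.020 for Rad50, -0.030 for Fanca, -0.070 for Fancc, 0.038 for Fancm and 0.042 for Ercc2. The covariate gave 0.24 for Bard1, 0.011 for Rad54l, 0.0014 for Fancd2, 0.46 for Fancm, 0.44 for Pms2, 0.074 for Lig3, 0.0079 for Parp1, 0.28 for Ercc1, 0.035 for Atm and -0.018 for Chek2. Leaving out 1 pair gave ranges of -0.15 to 0.17 for Fancm, -0.019 to 0.14 for Ercc3, -0.11 to 0.0020 for Atm, -0.049 to 0.11 for Chek2, -0.076 to 0.016 for Lig3, -0.11 to 0.13 for Ercc2, -0.25 to 0.047 for Pms2, -0.37 to 0.039 for Rad52, -0.043 to 0.18 for Xrcc5 and -0.068 to 0.053 for Prkdc. Intensities near the Trpn background, as for Bard1, limit what can be measured.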
